A study of Mus musculus with 6 samples.

Results

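The genes described here are the core cell cycle genes of mouse blood progenitors, namely cyclins, cyclin-dependent kinases (CDKs) and their inhibitors, E2F and RB family factors, and effectors of DNA replication and mitosis. They were chosen by name, and all 45 were found among the 12161 genes of the expression table, each in 1 row. Messenger RNA was sequenced from LSK cells, the bone marrow fraction without lineage markers but with Sca1 and Kit on its surface, in which stem cells and multipotent progenitors are found. The cells were sorted from C57BL/6 mice, given a retrovirus on retronectin-coated plates and kept for 2 days in StemPro-34 medium. That medium held mIL-6 at 10 ng/mL, a factor written as mL-3 in the labels at 10 ng/mL, and mSCF and mFlt-3 at 50 ng/mL each, so every group grew under cytokines that drive division. GFP-positive cells were then sorted for RNA. The control group carried the vector MIG (genotype wild-type in the labels, 3 libraries) and the other group the vector MIG-Hhex, which adds the homeobox factor Hhex (genotype Hhex, 3 libraries). The replicate names WT3, WT691 and WT703 occur once in each group. Both libraries of WT3 were run on flow cell C3RJFACXX and the other 4 on flow cell C5LWPANXX. The age of the mice, and whether libraries with the same replicate name came from the same mice, is unknown here. Where they did not come from separate mice, the p-values measure only the spread between these libraries. Hhex is made from a retrovirus in these cells and not from its own locus, and the cells were sorted by GFP, not by cycle phase.

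Cells enter the cycle when D-type cyclins activate CDK4 and CDK6, which phosphorylate RB proteins and so release E2F factors. E2F factors then switch on cyclin E, CDC25A and the genes of DNA replication, and cyclin E and cyclin A with CDK2 carry the cell through S phase. Cyclin B with CDK1, held back by WEE1 and released by CDC25 phosphatases, starts mitosis. In blood stem cells these genes separate the resting state, in which inhibitors such as p27 hold CDKs back, from the dividing state of cultured progenitors.

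Values are log2 expression values as the authors normalized them, and a difference of 1 is a doubling. They behave as values per length of transcript. Multiplied by exon length in kilobases in GENCODE M21, the linear values of the 11740 genes with a length summed to nearly the same total in each library, the lowest being 98.5% of the highest. Levels were therefore compared between genes on this scale. The number of reads behind a value is unknown. Hhex itself stood at 5.18, 5.05 and 5.13 in the MIG libraries of WT3, WT691 and WT703 and at 7.61, 9.34 and 9.06 in the MIG-Hhex libraries, so the labels and the Hhex level went together in all 6 libraries. Reads from the vector and from the cell's own Hhex gene are not separated. Of the LSK surface genes, Kit (4.73), Ly6a, which encodes Sca1 (5.17), Cd34 (7.29), Flt3 (4.12) and Cd48 (7.53) were present in the MIG mean, while Slamf1 stood at −0.24. Ly6a was far lower in the WT3 libraries (3.18 with MIG and 3.55 with MIG-Hhex) than in the other 4, which held 5.89 to 6.25. Granulocyte genes were abundant too, with Mpo at 10.96 and S100a8 at 10.31 in the MIG mean. In such bulk samples fewer cells of a type and less RNA per cell cannot be told apart.

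The cell cycle genes changed little between MIG and MIG-Hhex. Each gene was fitted with limma, with vector and flow cell as terms, and a gene was called when its Benjamini-Hochberg adjusted p over all genes was under 0.05. Of the 45 genes, 8 were called higher and 2 lower with MIG-Hhex. The 10 calls are 22.2% of the members, against 18.0% of all genes tested (9.44% higher and 8.52% lower). Only the total is near the background share, since most of the calls were upward. Estimates were positive in 31 of the 45 members (68.9%), against 46.1% of all genes. Genes share their libraries, so this upward lean is a description without a test. The counts called per role below rest on few genes and stand beside the same 18.0%. The higher genes were the cyclins Ccnd2 and Ccnd3, the kinase Cdk2, the factors E2f2 and E2f8, the phosphatase Cdc25b and the mitotic genes Top2a and Nusap1. The lower genes were the phosphatase Cdc25a and the deubiquitinase Usp1. The median difference of the members was 0.06, and its size without the sign was 0.11, against −0.02 and 0.17 over all genes. Within 0.25 of no change lay 36 of the 45 members (80%), against 63.5% of all genes. The members were more abundant, with a median MIG level of 5.53 against 3.57 over all genes. Their SEs were also smaller, with a median of 0.064 against 0.095. Genes of like level were not compared, so the narrower spread is not shown to be particular to cell cycle genes. With libraries of equal replicate name treated as pairs (the replicate block), 10 members were called higher and 3 lower, together 28.9% against 24.5% of all genes. The additional genes were Ccnd1 and Cdkn2d (higher) and Cdk4 (lower).

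**Figure D1:**
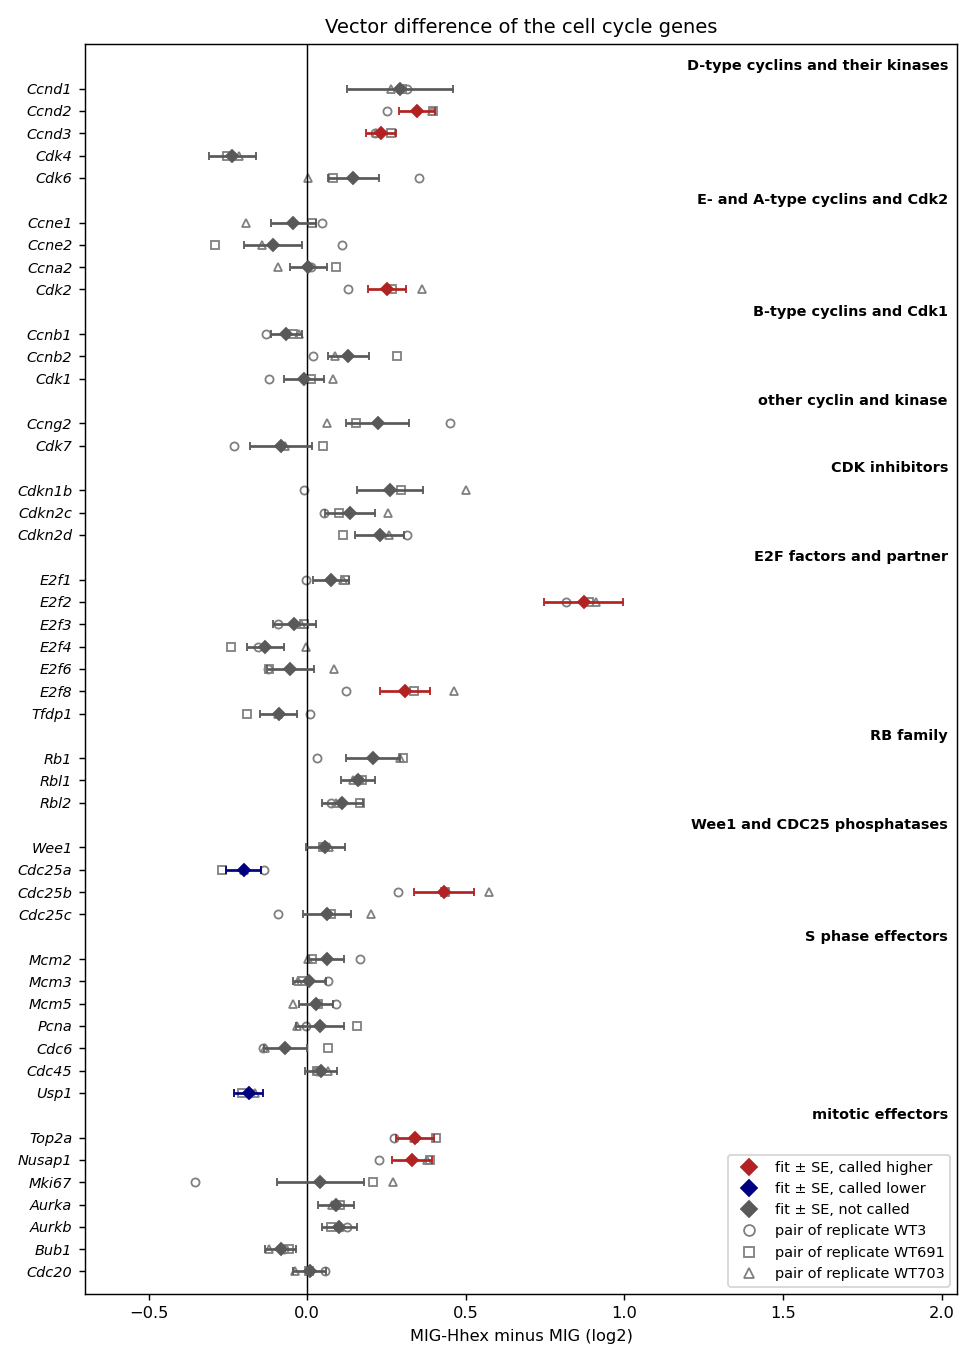
Difference of MIG-Hhex from MIG in log2 units (x axis) for each of the 45 genes (y axis), grouped by role. Diamonds with bars are the limma estimate ± SE and open symbols the difference in each replicate pair. E2f2 stands apart at 0.87, and all other estimates lie between −0.24 and 0.43.

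In 9 of the 45 genes the MIG and MIG-Hhex libraries did not overlap (20%), against 21.2% of all genes. Those that were higher in every MIG-Hhex library were Cdk2, Ccng2, Cdkn2d, E2f2, Rb1, Cdc25b and Nusap1, and those that were lower were Ccnb1 and Cdc25a. The 3 replicate pairs had the same sign in 29 members (64.4%), against 59.8% of all genes, which is near the background share. The members' median difference was 0.05 in the pair of WT3, 0.08 in the pair of WT691 and 0.08 in the pair of WT703. A limma interaction of vector and flow cell called 0 members and 0% of all genes. In it, 600 of the 12161 genes and 2 of the 45 members had an unadjusted p under 0.05. Those 2 were Mki67 and Cdkn1b, with differences of −0.35 and −0.01 in the pair of WT3, 0.21 and 0.30 in that of WT691 and 0.27 and 0.50 in that of WT703. The interaction fit has 1 library per vector on C3RJFACXX and 2 residual degrees of freedom, and 0 calls in it do not show that the responses were alike.

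Promoter sequences were searched for short motifs of factors known in the control of the cycle. A match of letters alone does not show that a factor acts on the gene. RefSeq promoters of GRCm38.p6 were matched by gene ID for 35 of the 45 members, and the 250 bases before each start were searched on both strands. The motif of E2F factors was searched as TTTCCCGC, TTTCGCGC, TTTGCCGC and TTTGGCGC. The cell cycle homology region, bound by the DREAM complex in resting cells, was searched as TTTGAA and TTCGAA, and the CCAAT box, bound by NF-Y, as CCAAT. The E2F letters stood in 8 of the 35 members (22.9%) against 4.05% of the 9699 genes of the table with a promoter. The cell cycle homology letters stood in 11 members (31.4%) against 14.5%, and CCAAT in 22 (62.9%) against 40.8%. Per promoter, the 3 shares over all 32851 RefSeq promoters were 1.86%, 17.1% and 33.8%. These shares are a description, since the members were chosen for their place in the cycle.

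Each line below gives the 150 bases before the start, 5′ to 3′ on the strand of the gene, with those motifs in capitals on either strand. Cdc25a (chr9:109875429-109875578, plus strand) and Cdk2 (chr10:128705052-128705201, minus strand) are called genes with E2F letters, in opposite directions of change. E2f2 (chr4:136172124-136172273, plus strand, the first of 2 RefSeq starts) is the gene with the largest difference. Top2a (chr11:99024190-99024339, minus strand) is a called mitotic gene, and Cdk1 (chr10:69352913-69353062, minus strand) is a gene with all 3 motifs that was not called.
Cdc25a: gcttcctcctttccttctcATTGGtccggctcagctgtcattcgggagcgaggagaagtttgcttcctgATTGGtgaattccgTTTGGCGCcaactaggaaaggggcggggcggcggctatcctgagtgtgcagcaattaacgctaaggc
Cdk2: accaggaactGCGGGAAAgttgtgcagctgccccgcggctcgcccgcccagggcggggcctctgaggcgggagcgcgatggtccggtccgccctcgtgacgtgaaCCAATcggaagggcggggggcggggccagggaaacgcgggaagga
E2f2: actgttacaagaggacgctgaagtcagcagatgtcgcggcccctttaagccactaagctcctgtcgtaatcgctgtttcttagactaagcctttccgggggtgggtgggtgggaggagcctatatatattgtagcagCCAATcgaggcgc
Top2a: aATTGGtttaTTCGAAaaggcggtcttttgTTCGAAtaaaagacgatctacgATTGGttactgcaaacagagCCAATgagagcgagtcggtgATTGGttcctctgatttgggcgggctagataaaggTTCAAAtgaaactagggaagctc
Cdk1: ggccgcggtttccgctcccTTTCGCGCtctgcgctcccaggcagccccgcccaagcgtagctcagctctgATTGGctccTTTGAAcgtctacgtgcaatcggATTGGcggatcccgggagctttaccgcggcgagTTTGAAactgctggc

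In Cdc25a the E2F letters TTTGGCGC ended 60 bases before the start, and in Cdk2 they lay on the other strand, as GCGGGAAA, from 140 bases before it. For Cdc25a and Top2a the RefSeq gene itself begins inside the printed window, at 109875518 and 99024199. The start of the promoter entry therefore lies downstream of the gene's outermost start, and in Cdc25a the E2F letters span that outer start. The window of E2f2 held a single CCAAT 13 bases before the start and neither of the other motifs, and the 250 bases before its second start held 3 CCAAT boxes and 1 cell cycle homology motif. Top2a carried 6 CCAAT boxes and 4 cell cycle homology motifs in its 250 bases, more than any other member, while Cdk1 carried 3 and 2 beside its E2F letters. Genes with like letters therefore stood both among the called and among those not called. Of the 8 called members with a promoter, 2 held E2F letters (Cdc25a and Cdk2), and Nusap1 held none of the 3 motifs.

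**Figure D2:**
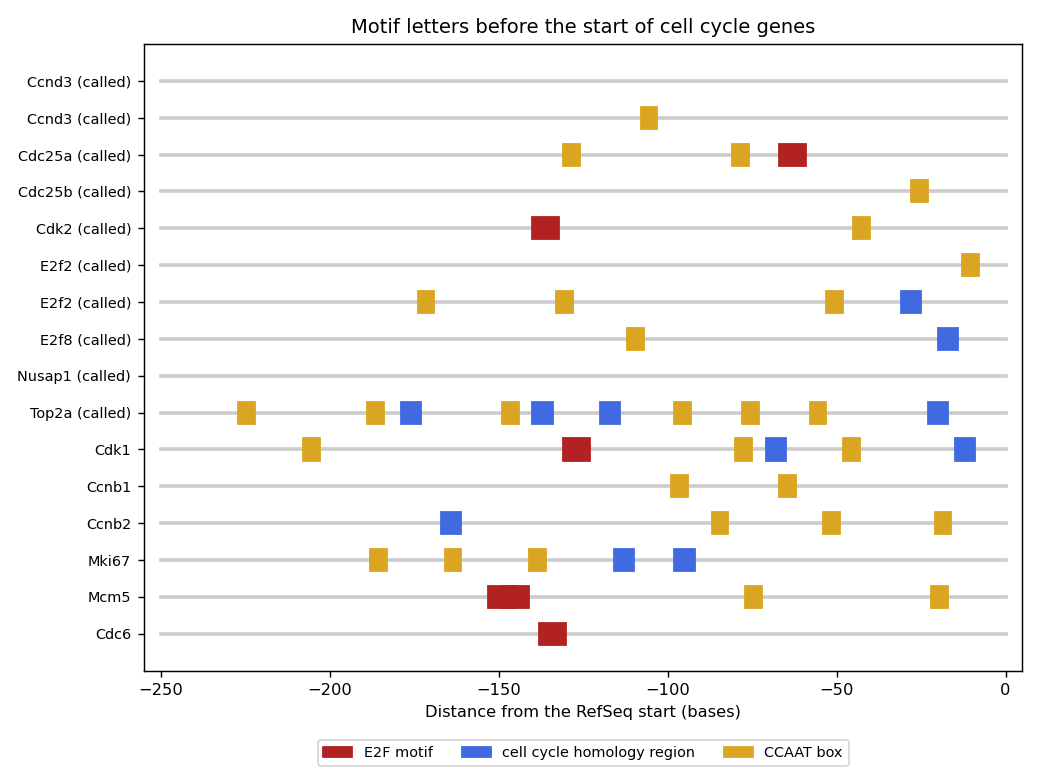
Position of the motif letters in the 250 bases before RefSeq starts (x axis, distance in bases) for the 8 called members with a promoter and 6 members that were not called (y axis, 1 line per start). Coloured boxes mark the E2F motif, the cell cycle homology region and the CCAAT box, and Top2a and Cdk1 hold the densest runs.

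D-type cyclins, the sensors of growth signals that start the cycle, rose in part. Ccnd2 (cyclin D2, chromosome 6) had values of 5.78, 6.19 and 6.27 in the MIG libraries of WT3, WT691 and WT703 and of 6.03, 6.58 and 6.66 in the MIG-Hhex libraries. Both WT3 libraries lay below the other 4, so the groups overlapped, while each pair stepped up. The difference was 0.35 (SE 0.06, 1.27-fold, adjusted p = 0.0122). Ccnd3 (cyclin D3, chromosome 17) stood at 6.93, 6.41 and 6.41 with MIG and at 7.15, 6.68 and 6.63 with MIG-Hhex, and here WT3 was the high pair. It rose by 0.23 (SE 0.05, adjusted p = 0.0211). Ccnd1 (cyclin D1, chromosome 7) measured 3.94, 4.22 and 4.73 with MIG and 4.26, 4.51 and 4.99 with MIG-Hhex, with replicates far apart and like steps between the vectors (0.31, 0.30 and 0.26 in the pairs of WT3, WT691 and WT703). Its difference of 0.29 (SE 0.17) did not pass (adjusted p = 0.263) and passed with the replicate block (adjusted p = 0.0128). By level, Ccnd3 (6.59 ± 0.30 in MIG, SD, n = 3) and Ccnd2 (6.08 ± 0.26) lay above Ccnd1 (4.30 ± 0.40).

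The kinases that D-type cyclins activate did not pass. Cdk4 was the most abundant of all members, at 9.06, 8.76 and 8.88 with MIG and 8.83, 8.50 and 8.67 with MIG-Hhex. Each pair stepped down, with pair differences of −0.24, −0.25 and −0.21, while the groups overlapped. The fitted difference of −0.24 (SE 0.07) had an adjusted p of 0.0765, and of 0.0231 with the replicate block. Cdk6, the sister kinase that controls how readily stem cells leave rest, had values of 3.75, 5.52 and 5.65 with MIG and 4.10, 5.60 and 5.65 with MIG-Hhex. Both WT3 libraries lay far below the rest, and the vector difference was 0.15 (SE 0.08, adjusted p = 0.253).

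**Figure D3:**
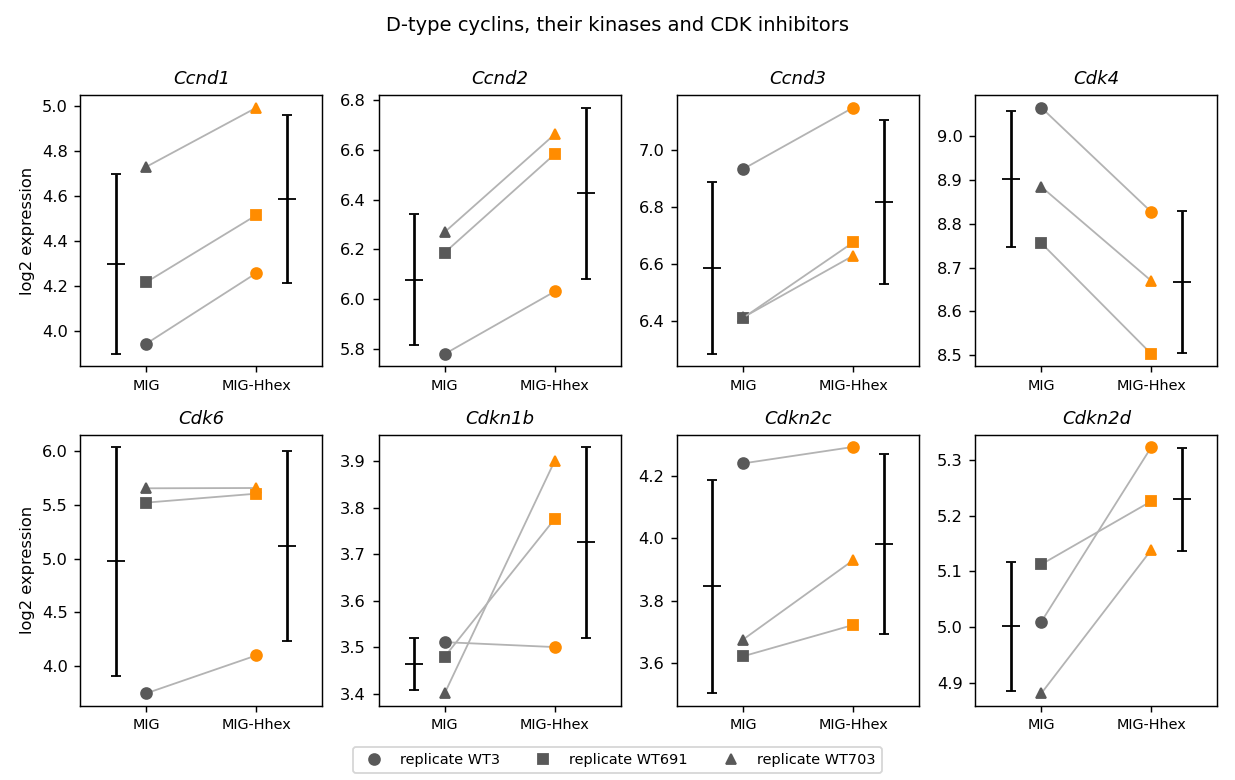
Log2 expression (y axis) of the D-type cyclins, Cdk4, Cdk6 and the CDK inhibitors in each library, with MIG in grey and MIG-Hhex in orange. Lines join libraries of 1 replicate name, and bars are the mean ± SD of 3 libraries. The 3 lines run upward in Ccnd1, Ccnd2 and Ccnd3 and downward in Cdk4.

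None of the 3 CDK inhibitors was called (limma, 2 at an unadjusted p under 0.05), and all 3 estimates were positive. An unadjusted p under 0.05 was common in this limma fit, with 15 of the 45 members and 4170 of the 12161 genes. Cdkn1b encodes p27, which blocks CDK2 in resting cells. Its values were 3.51, 3.48 and 3.40 with MIG and 3.50, 3.78 and 3.90 with MIG-Hhex. The WT3 pair was level, and the other 2 pairs were higher by 0.30 and 0.50, which gave a difference of 0.26 (SE 0.10, adjusted p = 0.129). Cdkn2d, the CDK4 and CDK6 inhibitor p19-INK4D, stood at 5.01, 5.11 and 4.88 with MIG and at 5.32, 5.23 and 5.14 with MIG-Hhex. Although these groups did not overlap, the difference of 0.23 (SE 0.08) had an adjusted p of 0.0879, and of 0.035 with the replicate block. Cdkn2c, its relative p18-INK4C, stood at 4.24, 3.62 and 3.68 with MIG and at 4.29, 3.72 and 3.93 with MIG-Hhex. WT3 was the high pair in both groups, and the gene had a difference of 0.14 (SE 0.08, adjusted p = 0.27). Of the other inhibitors, E2F partners and degradation genes listed beside them, Cdkn1a (p21) rose by 0.68 (SE 0.12, adjusted p = 0.0154).

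Among the E2F factors a single activator and a single repressor rose. E2f2, an activator of S phase genes, had values of 3.14, 3.51 and 3.16 in the MIG libraries and 3.95, 4.40 and 4.07 in the MIG-Hhex libraries. Every MIG-Hhex library lay above every MIG library, and the 3 pairs differed by 0.82, 0.89 and 0.91. E2f2 (Entrez ID 242705, chromosome 4, 136172274 to 136196057 in GRCm38) thus rose from 3.27 ± 0.21 to 4.14 ± 0.23 (SD, n = 3), 1.83-fold (log2 difference 0.87, SE 0.12, adjusted p = 0.00728). E2f8, a repressor that lowers E2F targets late in S phase, stood at 5.20, 5.62 and 5.45 with MIG and at 5.32, 5.95 and 5.91 with MIG-Hhex. The WT3 pair was the lowest in each group and moved least, and the difference was 0.31 (SE 0.08, adjusted p = 0.0417).

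The other activators were not called. E2f1 measured 4.86, 4.51 and 4.56 with MIG and 4.86, 4.63 and 4.67 with MIG-Hhex, a difference of 0.08 (SE 0.06, adjusted p = 0.384). E2f3 measured 3.73, 3.79 and 3.88 with MIG and 3.64, 3.77 and 3.86 with MIG-Hhex, a difference of −0.04 (SE 0.07, adjusted p = 0.71). In both genes the groups overlapped. The repressor E2f4 stood at 6.80, 6.59 and 6.48 with MIG and at 6.64, 6.35 and 6.48 with MIG-Hhex, and E2f6 at 4.91, 4.79 and 4.81 and at 4.78, 4.67 and 4.90. Their differences of −0.13 and −0.05 did not pass, nor did that of Tfdp1, the partner with which E2F factors bind DNA (−0.09), whose values were 7.23, 7.61 and 7.58 with MIG and 7.24, 7.42 and 7.49 with MIG-Hhex. In MIG, Tfdp1 (7.47) and E2f4 (6.62) were the most abundant and E2f2 (3.27) the least abundant of the 7, and with MIG-Hhex E2f2 (4.14) stood above E2f3 (3.76) by level. Whether E2f2 differed from its relatives in response was not tested.

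Markers of mature blood cells also moved between the groups. Over all genes, 9.44% were called higher and 8.52% lower, and the counts below stand beside these shares. Of 6 erythroid markers, 3 were higher (Gata1, Klf1 and Hba-a1) and 1 lower (Tfrc), with a summed linear level of 141.0 to 166.7 in MIG and 140.0 to 145.6 in MIG-Hhex. Most of this sum was Tfrc, with means of 7.08 in MIG and 6.79 in MIG-Hhex, so the sum says little of the others. Gata1, the next by level, had means of 3.27 and 3.98. Of these markers, the haemoglobin gene Hba-a1 was below 0 on the log2 scale in every MIG library and between 1.96 and 2.36 in the MIG-Hhex libraries. Of 8 neutrophil markers, 5 were higher and 1, Mpo, was lower, with sums of 5143 to 5912 and 4572 to 5852. Of 5 mast cell and basophil markers, 3 were lower, with sums of 169.3 to 360.0 and 72.6 to 154.3. Of 5 monocyte and macrophage markers, Adgre1 was higher by 1.42 (SE 0.20) and Ccr2 lower, with a difference of −2.04 (SE 0.17), and the sums were 265.2 to 714.9 and 264.6 to 816.9. Ly6c2, which was not called, was the most abundant of these 5 (7.87 in the MIG mean) and weighed most in the sums. Megakaryocyte markers (5 genes, 2 higher and 1 lower) summed to 63.3 to 91.3 and 69.4 to 92.7. The 2 lymphoid markers in the table, Il7r and Dntt (0 higher, 1 lower), summed to at most 6.90 in any library, and Il7r was below 0 in all of them. Of the 6 LSK surface genes 0 were called, with sums of 408.6 to 485.5 in MIG and 334.8 to 430.6 in MIG-Hhex. Flt3 (−0.47, SE 0.22) and Cd48 (−0.34, SE 0.09) passed only with the replicate block (limma, adjusted p = 0.0241 and 0.00896). Kit, Ly6a, Cd34 and Slamf1 did not pass in either fit. The part of these cell types in the differences of the cell cycle genes was not tested.

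RB family genes, whose proteins hold E2F factors in check, were not called (limma, 0 of 3, with 2 at an unadjusted p under 0.05). In the same fit 15 of the 45 members and 4170 of the 12161 genes were under that value. Rb1 was higher in every MIG-Hhex library (3.96, 4.13 and 4.00) than in any MIG library (3.92, 3.83 and 3.71), with a difference of 0.21 (SE 0.09, adjusted p = 0.14). Rbl1, which encodes p107, held 4.42, 4.81 and 4.87 with MIG and 4.58, 4.98 and 5.02 with MIG-Hhex, with WT3 the low pair. It differed by 0.16, 0.17 and 0.14 in the 3 pairs and had the smallest p of the family (difference 0.16, SE 0.05, adjusted p = 0.081). Rbl2, which encodes p130, the pocket protein of resting cells, had a difference of 0.11 (SE 0.06, adjusted p = 0.266).

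Of the kinases and cyclins of S phase and mitosis, Cdk2 was the single call. Cdk2 had values of 5.66, 5.62 and 5.53 with MIG and 5.78, 5.89 and 5.89 with MIG-Hhex, without overlap. It rose by 0.25 (SE 0.06, 1.19-fold, adjusted p = 0.0349). Its cyclins were not called, with differences of −0.04 for Ccne1 (SE 0.07), −0.11 for Ccne2 (SE 0.09) and 0.00 for Ccna2 (SE 0.06). Ccna2, the cyclin of S phase and G2, measured 7.16, 7.29 and 7.33 with MIG and 7.17, 7.38 and 7.24 with MIG-Hhex. The mitotic kinase Cdk1 stood at 7.02, 6.61 and 6.66 with MIG and at 6.90, 6.62 and 6.74 with MIG-Hhex. In both genes the groups overlapped, and Cdk1 had a difference of −0.01 (SE 0.06). Ccnb1, which activates Cdk1, was lower in every MIG-Hhex library (5.91, 5.97 and 5.95 against 6.04, 6.01 and 5.98), yet by only −0.07 (SE 0.05, adjusted p = 0.379). Ccnb2, a second cyclin of Cdk1, stood at 6.88, 6.54 and 6.66 with MIG and at 6.90, 6.82 and 6.75 with MIG-Hhex. Its groups overlapped, with a difference of 0.13 (SE 0.06, adjusted p = 0.203).

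Cdk7, the kinase that activates other CDKs, had a difference of −0.08 (SE 0.10), and Ccng2, a cyclin of cells leaving the cycle, of 0.22 (SE 0.10, adjusted p = 0.17). For Ccng2, the MIG libraries held 2.93, 2.91 and 2.88 and the MIG-Hhex libraries 3.38, 3.06 and 2.95, which did not overlap. It was the least abundant member, with a MIG mean of 2.91.

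CDC25 phosphatases, which remove the brake that WEE1 puts on CDKs, did not all change alike, with 1 lower, 1 higher and 1 not called. Cdc25a, the phosphatase of S phase entry, had values of 5.21, 5.37 and 5.28 with MIG and 5.07, 5.10 and 5.09 with MIG-Hhex. The MIG-Hhex libraries (5.09 ± 0.02, SD, n = 3) all lay below each MIG library (5.29 ± 0.08), and the gene fell by 0.20 (SE 0.05, adjusted p = 0.0492). Cdc25b, which acts at the entry to mitosis, stood at 3.83, 3.90 and 3.64 with MIG and at 4.12, 4.33 and 4.21 with MIG-Hhex. Again the groups did not overlap, and it rose by 0.43 (SE 0.09, 1.35-fold, adjusted p = 0.0263), the second largest difference of the members. Cdc25c and Wee1 both had a difference of 0.06 (SE 0.08 and 0.06) and were not called.

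**Figure D4:**
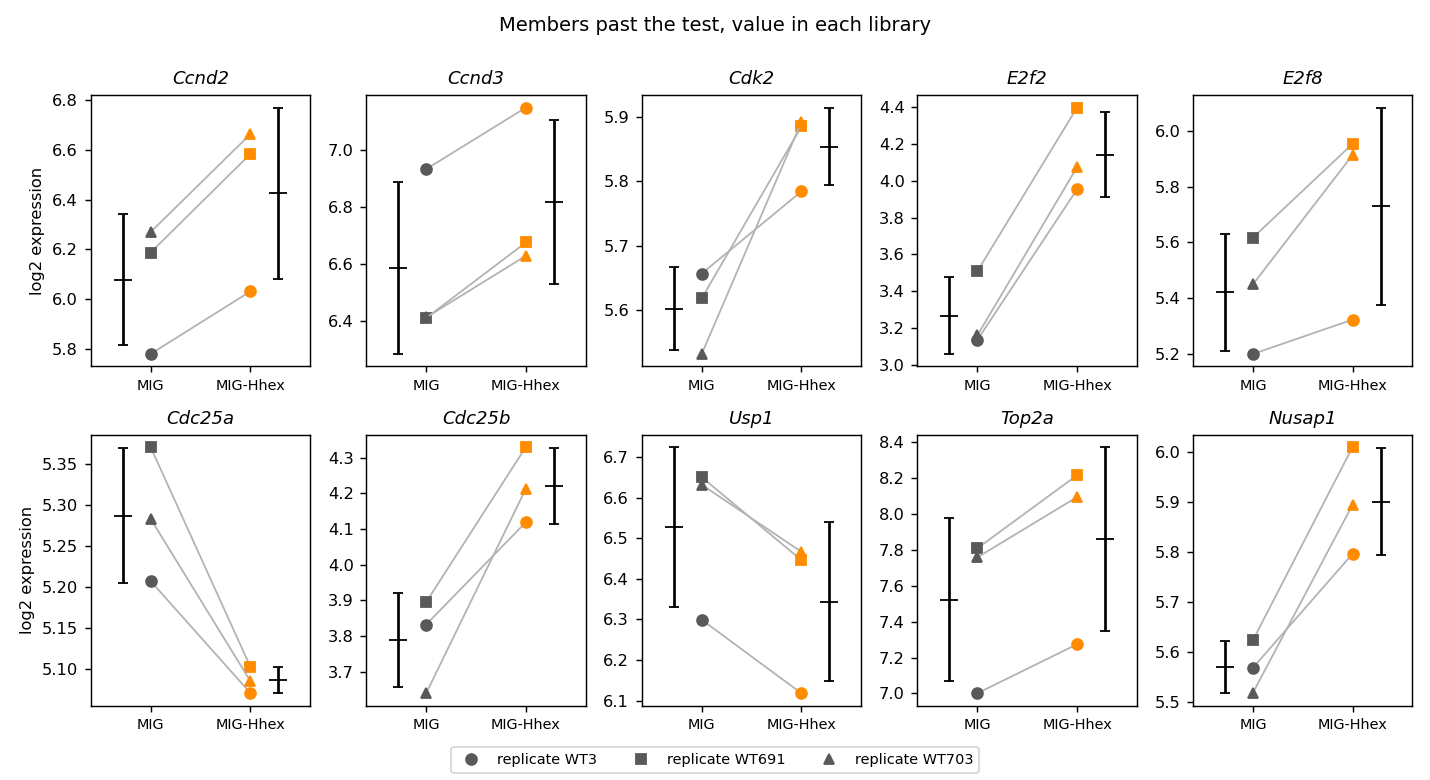
Log2 expression (y axis, scaled per panel) of the 10 members past the test in each library, with MIG in grey and MIG-Hhex in orange. Lines join libraries of 1 replicate name, and bars are the mean ± SD of 3 libraries. All 3 lines of a panel run the same way, and the groups separate without overlap in Cdk2, E2f2, Cdc25a, Cdc25b and Nusap1.

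Of 7 DNA replication genes, the single call (14.3%, against 18.0% of all genes) was Usp1, the deubiquitinase that acts on PCNA and FANCD2. Its values were 6.30, 6.65 and 6.63 with MIG and 6.12, 6.45 and 6.47 with MIG-Hhex. Each pair stepped down, the WT3 pair from a lower start, and Usp1 fell by 0.18 (SE 0.05, 1.14-fold, adjusted p = 0.0386). The helicase subunits Mcm2, Mcm3 and Mcm5 had differences of 0.06, 0.01 and 0.03, the sliding clamp Pcna of 0.04, and the helicase loading and activating factors Cdc6 and Cdc45 of −0.07 and 0.04, with SEs of 0.05 to 0.08. Pcna, for one, stood at 7.84, 7.68 and 7.92 with MIG and 7.84, 7.84 and 7.89 with MIG-Hhex. Mcm3 (7.86) and Pcna (7.82) were among the most abundant members in MIG, and Cdc6 (4.46) was the least abundant of these 7. None of 4 genes listed beside Usp1 (Wdr48, Fancd2, Fanci and Rad18) was called (limma, 0 of 4, with 0 at an unadjusted p under 0.05), against 18.0% of all genes called.

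Of the 7 mitotic genes, Top2a and Nusap1 rose (28.6%, against 18.0% of all genes called). Top2a, the topoisomerase that untangles chromosomes, had values of 7.001, 7.81 and 7.76 with MIG and 7.27, 8.22 and 8.09 with MIG-Hhex. The WT3 pair lay below the others and the groups overlapped, but each pair stepped up, by 0.27, 0.41 and 0.34. The difference was 0.34 (SE 0.06, 1.26-fold, adjusted p = 0.0143). Nusap1, a spindle protein, stood at 5.57, 5.62 and 5.52 with MIG and at 5.80, 6.01 and 5.90 with MIG-Hhex, without overlap. It rose by 0.33 (SE 0.06, 1.26-fold, adjusted p = 0.0183).

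The remaining mitotic genes were not called. Mki67, which encodes the Ki-67 protein of dividing cells, had values of 5.15, 6.55 and 6.31 with MIG and 4.80, 6.76 and 6.58 with MIG-Hhex. Its WT3 libraries were the lowest of each group, and its difference of 0.04 had the largest SE of the mitotic genes (0.14). The kinases Aurka and Aurkb had differences of 0.09 and 0.10 (SE 0.06 each), the checkpoint kinase Bub1 of −0.08 (SE 0.05) and Cdc20, which starts anaphase, of 0.01 (SE 0.05). Cdc20 measured 6.88, 6.81 and 6.90 with MIG and 6.93, 6.82 and 6.86 with MIG-Hhex, so its pairs differed by 0.05, 0.01 and −0.04.

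Further cell cycle genes, outside the 45, were listed by role. Over 5 lists, 10 of 139 measured genes were higher and 5 lower (10.8% against 18.0%), and their median difference was 0.03. A single gene in each direction was called among 45 further replication genes (4.44% against 18.0%). Cdc7, the kinase that fires replication origins, fell by 0.44 (SE 0.08, adjusted p = 0.015), and Msh6, of mismatch repair, rose by 0.21 (SE 0.06, adjusted p = 0.0478). Of 41 further mitotic genes, 4 were called (9.76%), all of them higher, and the median was 0.09. That share is near the 9.44% of all genes called higher. The condensin subunit Ncapd2 rose by 0.25 (limma, adjusted p = 0.0185) and Incenp, which places Aurora B, by 0.19 (adjusted p = 0.0453). The kinesin Kif22 rose by 0.18 (adjusted p = 0.0495) and Racgap1, of cytokinesis, by 0.22 (adjusted p = 0.0498). With libraries left out, Ncapd2 was called in 1 of 7 distinct fits and Incenp, Kif22 and Racgap1 in 0.

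Among 24 other cyclins and CDKs, 3 were called in each direction (25% against 18.0% of all genes, median difference −0.05). Ccng1 rose by 0.32 (adjusted p = 0.0124), Ccnf by 0.29 and Ccni by 0.28, while the Mediator kinase Cdk8 and its cyclin Ccnc fell by 0.30 each (SE 0.05 and 0.06, adjusted p = 0.0125 and 0.0224) and Ccnl1, a cyclin of splicing, by 0.41. Of 25 other inhibitors, E2F partners and degradation genes, 2 rose and 1 fell (12% against 18.0% of all genes called). Beside Cdkn1a these were Tfdp2, a second E2F partner (0.42, SE 0.11, adjusted p = 0.0466), and Fbxo5, the inhibitor of the anaphase-promoting complex, which fell by 0.28 (SE 0.06, adjusted p = 0.0262).

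The members also differed between replicates. Between flow cell C3RJFACXX, which holds WT3, and C5LWPANXX, 10 members were higher and 11 lower (limma, same fit), which is 46.7% against 46.6% of all genes. Their median difference without the sign was 0.21, against 0.11 between the vectors, and over all genes 0.32 against 0.17. Of those lower on C3RJFACXX, Cdk6 had a difference of −1.68 (SE 0.09, adjusted p = 0.000317) and Mki67 of −1.58 (SE 0.14, adjusted p = 0.000685). Top2a (−0.83, SE 0.06), Ccnd2 (−0.52) and Rbl1 (−0.42) were lower there as well. Ccnd3 was higher there by 0.51 (SE 0.05, adjusted p = 0.000783). With MIG, Ccnd3 exceeded Ccnd2 by more in WT3 (6.93 and 5.78) than in WT691 (6.41 and 6.19) or WT703 (6.41 and 6.27). Of the 6 LSK surface genes, Ly6a (−2.74, SE 0.14) and Flt3 (−1.75, SE 0.23) were lower there and Cd48 (0.47, SE 0.10) was higher, while Kit (−0.15), Cd34 (−0.34) and Slamf1 (−0.68) did not pass. WT3 is the only replicate name on its flow cell, and its libraries entered the fit as separate samples. The p-values between flow cells therefore do not measure the spread between replicates. Flow cell and replicate cannot be told apart here, and the part of the cells' makeup was not tested.

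Transcript length moved with this difference. Over the 11740 genes with an exon length, Spearman's rho between length and the flow cell difference was −0.537, and over the 45 members −0.625. Genes share their libraries, so this is a description without a test. The median flow cell difference was 0.37 among the 2940 genes of up to 2087 bases and −0.34 among the 2933 genes of 4958 bases or more. Cdk6 (11525 bases) and Mki67 (10061 bases) are the longest members, and Ccnd3 (2447 bases) lies among the shorter. The vector difference had a rho with length of 0.05 over all genes and 0.22 over the members. The part of length in the differences between replicates was not tested.

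**Figure D5:**
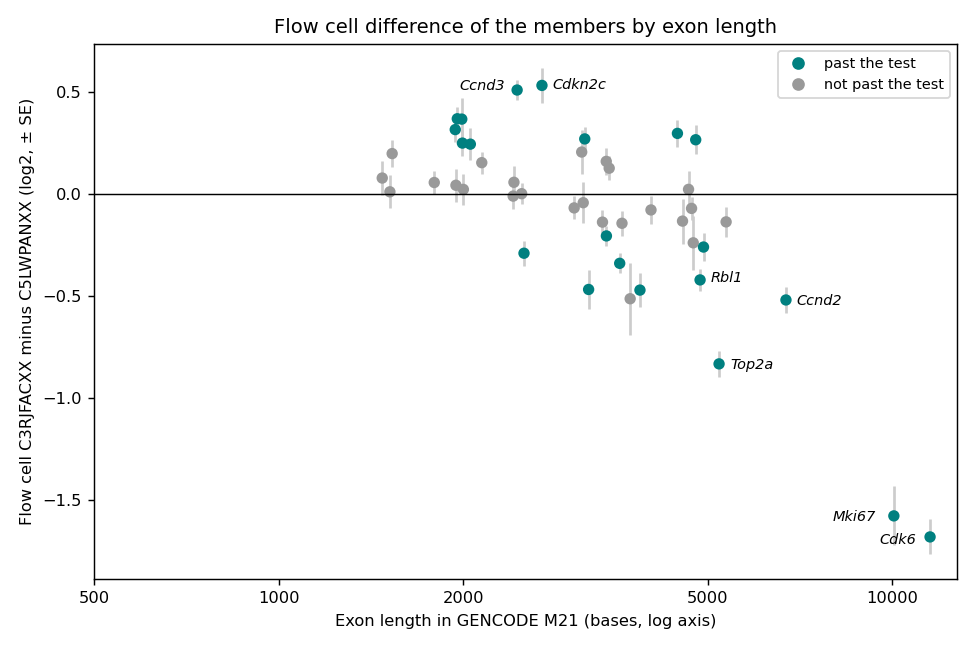
Difference between flow cells (y axis, C3RJFACXX minus C5LWPANXX, log2, ± SE from limma) of the 45 members against exon length in bases (x axis, log scale). Teal points passed the test. The longest members, Cdk6 and Mki67, lie lowest, at −1.68 and −1.58.

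Libraries were also left out singly or by replicate name. With the flow cell term, leaving out either WT3 library gives the same estimate as leaving out both, so there were 7 distinct fits. E2f2 was called in all 7, with differences of 0.76 to 0.96 and adjusted p of 0.00965 to 0.0364. Ccnd2 was called in 5 of them (adjusted p up to 0.0767), Top2a in 4 (up to 0.0769), Nusap1 in 3 (up to 0.0884), and Cdk2, E2f8, Ccnd3 and Cdc25b in 1 each (up to 0.174, 0.166, 0.111 and 0.101). For Cdk2 and E2f8 that fit was the one without WT3. Cdc25a and Usp1 were called in 0 of the 7 (up to 0.176 and 0.15), though the sign held for each of these 10 genes throughout. E2f2 was the single call without replicate WT703 and without the MIG-Hhex library of WT691. Over the 7 fits, 5.14% to 12.1% of all genes were called, against 18.0% with every library. Without the flow cell term no member was called (limma, 0 of 45, with 4 at an unadjusted p under 0.05, and 1.78% of all genes called).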

How the data were processed

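RNA sequencing of 6 libraries of cultured LSK cells (3 MIG, 3 MIG-Hhex) was deposited as a table of log2 expression values for 12161 genes. The authors made these log2 values before deposit; Subread, featureCounts, limma, edgeR and the build mm10 are named per the submitters' processing notes, without versions or order, and no source used here describes the normalization or any filter. Read depth is unknown, so no counting interval was computed, and a count model was not used.

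All genes were fitted with limma 3.58.1 in R 4.3.3 (vector plus flow cell, empirical Bayes with a mean-variance trend, two-sided, 3 residual degrees of freedom, no filter), with Benjamini-Hochberg adjustment over all 12161 genes and a threshold of 0.05. The fit was tested on simulated data. Members and lists were chosen with earlier results of these data known. Values are given in full for members past the test, for the member with the smallest p of each role and for the D-type cyclin, inhibitor and E2F families; other lists and the flow cell contribute up to 6 genes each by p, and further genes were named after their values were seen. Libraries of equal replicate name were treated as pairs. Their deviations from the group means correlated by 0.742 (WT3), 0.585 (WT691) and 0.656 (WT703). The highest r of each MIG library with a MIG-Hhex library of another name was −0.479, 0.166 and 0.0867. WT3 is alone on its flow cell, so its value cannot tell pairing from flow cell. A replicate block was fitted as an alternative (2 residual degrees of freedom). Other alternatives changed the flow cell term, the low-value filter (mean log2 over 0), the variance prior, the scaling and the libraries. Promoters (GRCm38.p6) and gene positions came from RefSeq, and exon lengths from GENCODE M21 (GRCm38). All 6 sample columns were used. The result of 1 marker gene is not reported here.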

Additional observations from a re-analysis of the deposited data

How the results depend on the processing

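The number of reads behind each value is unknown, 3 libraries a group limit the precision, and replicate WT3 is the only one on its flow cell. Over 16 alternatives for the vector difference, the sign held for all 25 called genes of the 60 named (members and other cell cycle genes), and turned for 10 members that were not called. Quantile normalization gave 0.011 for Cdk1 and −0.018 for Mcm3, and equal library medians gave −0.0035 for Ccna2. Leaving out libraries gave −0.092 to 0.031 for Ccne1, −0.040 to 0.051 for Ccna2, −0.061 to 0.046 for Cdk1, −0.13 to 0.0017 for E2f6, −0.0081 to 0.14 for Cdc25c, −0.022 to 0.025 for Mcm3, −0.0045 to 0.063 for Mcm5, −0.036 to 0.10 for Pcna, −0.084 to 0.24 for Mki67 and −0.016 to 0.038 for Cdc20. Of the 8 higher and 2 lower members, limma called 10 and 3 with the replicate block, 0 and 0 without the flow cell term (4 at an unadjusted p under 0.05), 3 and 0 without a mean-variance trend (12 at an unadjusted p under 0.05; the 3 were E2f2, Ccnd2 and Top2a), 8 and 1 with a robust prior, and 7 and 0 after quantile normalization. Leaving out a library or a replicate name gave 1 to 7 higher and 0 to 0 lower members (12 to 14 at an unadjusted p under 0.05). The share of all genes called fell too, from 18.0% in the main fit to between 5.14% and 12.1% with libraries left out. It was 11.8% without the trend, 18.2% with the robust prior, 17.3% after quantile normalization and 17.9% with equal library medians. Of the other cell cycle genes, 10 higher and 5 lower became 13 and 11 with the replicate block, 0 and 0 without the flow cell term (13 at an unadjusted p under 0.05), 1 and 3 without a trend, and 5 and 5 with library medians set equal; leaving out libraries gave 0 to 6 higher and 0 to 4 lower. Between flow cells, 10 higher and 11 lower members became 5 and 15 after quantile normalization, and 2 to 9 higher and 7 to 12 lower with libraries left out, the lowest without the MIG library of WT3. The interaction had 0 calls under each of its 5 alternatives, with 0 to 2 members at an unadjusted p under 0.05. Fits that left a group with fewer libraries assume that these vary like the rest. The replicate block changed no other call among the members than Ccnd1, Cdkn2d and Cdk4. The cause of these changes was not tested.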
